A study of Mus musculus with 9 samples.

Results

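The genes described are the 9 of the KEAP1-NRF2 pathway chosen by symbol: the transcription factor gene Nfe2l2, its inhibitor Keap1, and 7 genes that NRF2 is known to induce, namely Gclc, Gclm, Txnrd1, Srxn1, Nqo1, Hmox1 and Abcc4. All 9 had a row among the 14020 genes of the expression table, and 7 of them were among the 10118 genes tested. RNA came from mouse hepatic stellate cells, liver pericytes that store vitamin A, cultured for 4 days in medium with serum and otherwise left at basal conditions. There were 3 groups of 3 libraries. The first was labelled a double knock-out of Nbr1 and Sqstm1 (DKO), the second was an Sqstm1 knock-out (Sqstm1 KO) and the third was wild type (WT). Both knock-out groups lack Sqstm1 by label, and by label they differ in Nbr1. The series' own design text names an Nbr1 knock-out and wild type and no Sqstm1 knock-out, which goes against the sample labels, and the groups here follow the sample labels. The sources used here give no strain or age and no detail of how the alleles were made. The series text calls the samples biological replicates, but no label says that they came from separate animals or cultures. P-values thus measure the spread between these libraries, which may in part be technical.

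KEAP1 is the substrate adaptor of a CUL3 ubiquitin ligase that keeps NRF2, the protein of Nfe2l2, short-lived. Oxidants and electrophiles modify cysteines of KEAP1, and NRF2 then accumulates, pairs with a small MAF protein and binds antioxidant response elements (AREs) in the control regions of its targets. The protein of Sqstm1, p62, also binds KEAP1 and can carry it into autophagosomes, and Sqstm1 is itself an NRF2 target. NBR1 is a related autophagy receptor. Because NRF2 is controlled mainly through the stability of its protein, the RNA of Nfe2l2 does not report its activity. The question that the groups put to this pathway is whether its RNAs differ in stellate cells without p62, or without p62 and NBR1. Among the RNAs measured, Srxn1 was lower in DKO cells, at 0.39 of the WT level, with Sqstm1 KO cells between the groups. The call rested on 33 reads in DKO and was lost without DKO replicate 1 or any 1 WT library. Neither Srxn1 difference that involves Sqstm1 KO passed. The other targets went both ways and none passed after adjustment: Gclm, Txnrd1 and the scarcely detected Nqo1 had lower means in DKO than in WT, while Gclc, Abcc4 and the scarcely detected Hmox1 had higher means in DKO than in WT. Nfe2l2 and Keap1 were not called in any comparison.

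The authors' values are normalized counts, that is reads per gene divided by a size factor of the library. Libraries held between 819677 and 1467793 counted reads, and 1 read was worth between 0.606 and 1.36 normalized counts. Sqstm1 KO replicate 3 stood apart, with its 10 highest genes taking 18.5% of its reads, against 9.74% to 13.9% in the other 8 libraries. The strand of the counted reads is not given. ND6, the mitochondrial protein gene that lies on the other strand from COX1, averaged 13400 over the 9 libraries and COX1 averaged 1690. Of other mitochondrial genes on the COX1 strand, ND5 averaged 10736 and CYTB 1060. Pcsk7, which lies opposite the contractile gene Tagln, averaged 10632 against 271 for Tagln. Whether the reads of a pathway gene came from its own strand was not tested, and each value given here may hold reads of the opposite strand in part or in whole. By GENCODE release 21 for mouse, 7 of the 9 genes have no exon of another gene opposite them, while Keap1 lies opposite Gm16754 and Gclm opposite Gm17494, neither of which had a row. An annotation without an opposite exon does not show which strand was counted.

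Sqstm1 was the check on the labels. It had 25.8, 51.4 and 59.9 normalized counts in DKO libraries and 40.8, 30.8 and 86.8 in Sqstm1 KO libraries, against 223, 255 and 243 in WT. All 6 knock-out libraries lay far below the 3 WT libraries. Mrnip lies opposite Sqstm1, so reads of the pair may be mixed in its value. Its log2 fold change against WT was -2.45 in DKO (SE 0.38; limma adjusted p = 0.00116) and -2.30 in Sqstm1 KO (SE 0.38; limma adjusted p = 0.0023). Nbr1 RNA had 81.3, 79.9 and 111 normalized counts in DKO, 75.5, 72.2 and 88.9 in Sqstm1 KO and 106, 92.7 and 106 in WT. Its log2 fold change in DKO was -0.17 against WT (limma adjusted p = 0.735) and 0.19 against Sqstm1 KO (limma adjusted p = 0.722). The count over the whole gene thus gave no sign of the Nbr1 loss named in the label. Directions given for the DKO group rest on its label.

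Other features moved with the groups as well. Of 16 stellate cell markers listed, 7 had a row, namely Hgf, Pdgfrb, Hand2, Col1a1, Col1a2, Col3a1 and Acta2. They summed to between 4022 and 6225 normalized counts in DKO and between 4802 and 5740 in Sqstm1 KO, against 1343 to 1479 in WT. The sum is led by abundant genes such as Col1a1 and Col1a2, which averaged 1864 and 1733 in DKO. Against WT the fold change was positive for all 7 in DKO, and for 5 with 2 negative in Sqstm1 KO. Lrat, Reln, Des, Gfap, Ngfr, Rgs5, Colec11, Vipr1 and Lhx2 had no row. No hepatocyte, lymphocyte or neutrophil marker of those listed had a row either. Of the 17 macrophage markers 4 had a row, and they summed to 14.3 to 29.3 in DKO, 8.68 to 12.3 in Sqstm1 KO and 20.3 to 35.4 in WT. For endothelial markers 1 of 9 had a row, with 2.87 to 12.6 in DKO, 2.17 to 8.17 in Sqstm1 KO and 9.70 to 16.3 in WT, and for cholangiocyte markers 2 of 6 had one, with 25.8 to 49.1 in DKO, 29.2 to 34.7 in Sqstm1 KO and 16.3 to 26.4 in WT. Portal fibroblast and mesothelial markers, 5 of 10, summed to 352 to 373 in DKO, 267 to 463 in Sqstm1 KO and 206 to 251 in WT. Reads of 4 Y-linked genes (Uty, Kdm5d, Ddx3y and Eif2s3y) came to 257 in DKO and 0 in Sqstm1 KO, against 655 in WT. Each DKO and WT library held at least 80 of them, so the sex of the cells differed between the Sqstm1 KO group and the other two. In both comparisons that involve Sqstm1 KO, sex and genotype cannot be told apart. Each DKO library held 80 to 89 of these reads and each WT library 129 to 292, not scaled for depth. WT replicate 1, at 819677 counted reads, lay below the 873156 to 1142862 of the DKO libraries and still held at least 129. Whether the sex make-up also differed between DKO and WT was not tested, so that comparison may hold a difference in sex as well. The part of these features in the results that follow was not tested. In bulk RNA fewer cells of a type and less RNA per cell cannot be told apart.

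**Figure D1:**
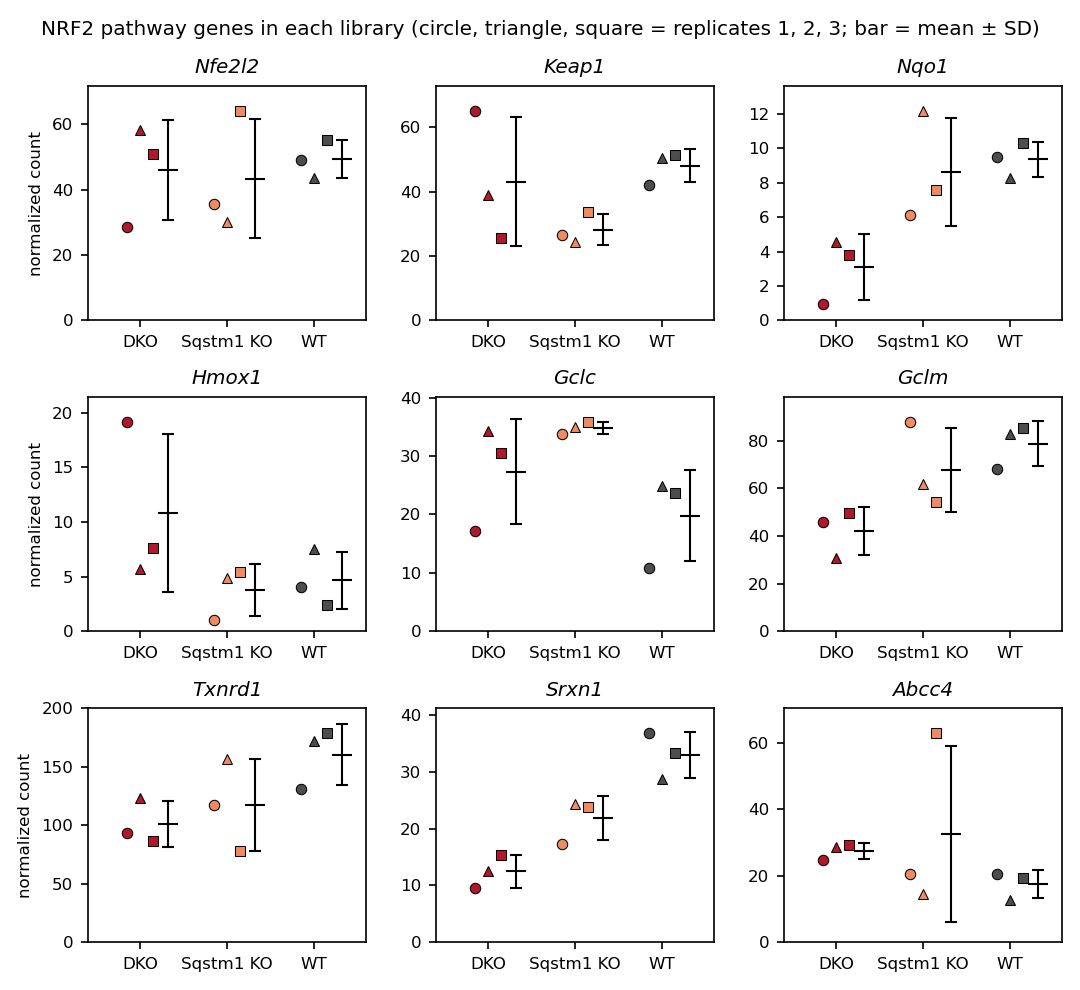
Normalized counts (vertical axes, each from 0) of the 9 pathway genes in every library, with circle, triangle and square for replicates 1, 2 and 3 and a black bar for mean ± SD of DKO, Sqstm1 KO and WT from left to right. Srxn1 is lowest in DKO, next in Sqstm1 KO and highest in WT with no overlap between the groups, while Nfe2l2 overlaps in all 3.

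Nfe2l2, the gene of the transcription factor itself, had 28.7, 58.2 and 50.9 normalized counts in DKO and 35.7, 30.0 and 64.0 in Sqstm1 KO, against 49.0, 43.7 and 55.2 in WT. The 3 groups overlapped, and the knock-out libraries were more scattered than the WT libraries (46.0 ± 15.4 in DKO, 43.3 ± 18.2 in Sqstm1 KO and 49.3 ± 5.75 in WT; SD, n = 3 each). Its log2 fold change was -0.15 in DKO against WT, with a 95% interval of -0.90 to 0.59, and -0.25 in Sqstm1 KO against WT, with an interval of -0.996 to 0.49. These intervals leave room for a fall to 0.54 and 0.50 of the WT level and for a rise to 1.50 and 1.40 times that level. Between DKO and Sqstm1 KO the log2 difference was 0.10, with an interval of -0.64 to 0.84, and its sign was not stable when single libraries were left out.

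Keap1 had 65.0, 38.8 and 25.5 normalized counts in DKO and 26.5, 24.3 and 33.6 in Sqstm1 KO, against 42.2, 50.5 and 51.5 in WT. Every Sqstm1 KO library lay below every WT library, while the DKO libraries overlapped both groups. The fold change of Sqstm1 KO over WT was 0.59 (log2 fold change -0.76, SE 0.34, unadjusted p = 0.0415), and it did not pass after adjustment (limma adjusted p = 0.234). In DKO against WT the log2 fold change was -0.25, with an interval of -0.97 to 0.48, and in DKO against Sqstm1 KO it was 0.51, with an interval of -0.22 to 1.23 (limma adjusted p = 0.726 in the first and 0.443 in the second).

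Taken within each library, the value of Nfe2l2 divided by that of Keap1 was 0.441, 1.5 and 2.0 in DKO and 1.35, 1.23 and 1.90 in Sqstm1 KO, against 1.16, 0.866 and 1.07 in WT. The Sqstm1 KO libraries were all above WT and the DKO libraries lay on both sides. An exact two-sided permutation test gave p = 0.1 for Sqstm1 KO against WT, which is the smallest p that 3 libraries against 3 allow, and p = 1 for DKO against WT. This ratio and the one of the glutamate-cysteine ligase subunits given next were chosen after their values were seen, and over the 6 tests of both the lowest adjusted p was 0.2.

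Glutathione synthesis starts with glutamate-cysteine ligase, in which Gclc encodes the catalytic and Gclm the modifier subunit. Gclc had 17.2, 34.2 and 30.6 normalized counts in DKO and 33.7, 34.9 and 35.8 in Sqstm1 KO, against 10.9, 24.9 and 23.6 in WT. Its 3 Sqstm1 KO libraries were close to each other and all above WT, and the DKO libraries overlapped both groups. The log2 fold change was 0.87 in Sqstm1 KO against WT (SE 0.38, unadjusted p = 0.0371, limma adjusted p = 0.221) and 0.47 in DKO against WT (SE 0.38, limma adjusted p = 0.507).

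Normalized counts of Gclm were 45.9, 30.8 and 49.7 in DKO and 87.8, 61.7 and 54.2 in Sqstm1 KO, against 68.1, 82.9 and 85.5 in WT. The DKO libraries were below all 6 others, and Sqstm1 KO overlapped WT. In DKO against WT the fold change was 0.53 (log2 fold change -0.91, SE 0.29), with an unadjusted p of 0.00672 and a limma adjusted p of 0.0781, just short of the threshold of 0.05. The adjusted p was 0.0258 when Sqstm1 KO replicate 3, a library of neither group, was left out of the shared estimate of the spread, and 0.0333 when only the 6 libraries compared were fitted. It was higher, between 0.114 and 0.264, when any 1 library of DKO or WT was left out. In DKO against Sqstm1 KO the log2 fold change was -0.67 (SE 0.29, limma adjusted p = 0.223).

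Within each library the ratio of Gclc to Gclm was 0.375, 1.11 and 0.615 in DKO and 0.384, 0.566 and 0.66 in Sqstm1 KO, against 0.16, 0.3 and 0.277 in WT. All 6 knock-out libraries were above the 3 WT libraries. The exact two-sided permutation test gave p = 0.1 against WT for DKO and again for Sqstm1 KO. Gclc in WT replicate 1 rested on 8 reads, so that the lowest of these ratios is imprecise.

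**Figure D2:**
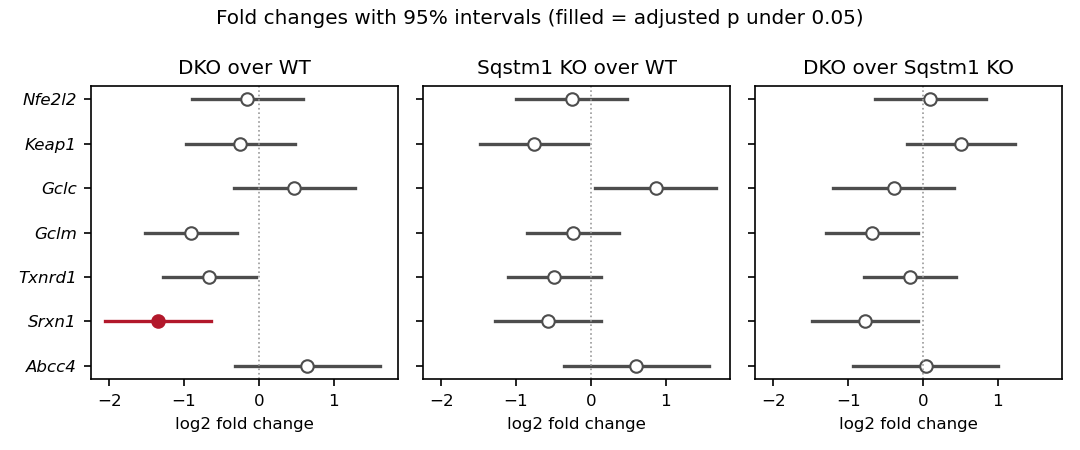
Log2 fold change (horizontal axis) of the 7 tested pathway genes in the 3 comparisons, with lines for the 95% interval of the limma fit and a filled circle where the adjusted p was under 0.05. Srxn1 in DKO over WT, at -1.35, is the 1 filled circle of 21.

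Thioredoxin reductase and sulfiredoxin keep protein thiols and peroxiredoxins reduced. Srxn1, which encodes sulfiredoxin, the enzyme that repairs over-oxidized peroxiredoxins, was the 1 pathway gene that passed the test. It had 9.56, 12.6 and 15.3 normalized counts in DKO and 17.4, 24.3 and 23.9 in Sqstm1 KO, against 36.8, 28.6 and 33.4 in WT. The groups did not overlap in any pair, with DKO lowest and WT highest. Between DKO and WT 31.2% of all genes did not overlap, between Sqstm1 KO and WT 26.0%, and between DKO and Sqstm1 KO 21.0%. In DKO against WT Srxn1 fell to 0.39 of the WT level, with a 95% interval of 0.24 to 0.64 (log2 fold change -1.35, SE 0.33, limma adjusted p = 0.0247). The other differences did not pass, with a log2 fold change of -0.58 in Sqstm1 KO against WT (SE 0.33, limma adjusted p = 0.365) and of -0.77 in DKO against Sqstm1 KO (SE 0.33, limma adjusted p = 0.225).

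The Srxn1 value rested on 33 reads in DKO, 69 in Sqstm1 KO and 120 in WT. The fall in DKO against WT was also called by edgeR (adjusted p = 0.0224) and DESeq2 (adjusted p = 0.0189) on the recovered reads. The call was lost when DKO replicate 1 (limma adjusted p = 0.0817) or any of WT replicates 1, 2 and 3 (0.0938, 0.0794 and 0.107) was left out, with a log2 fold change between -1.50 and -1.18 over all left-out libraries.

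The region around the start of Srxn1 is shown because it is the gene that was called. It runs from 250 bases before to 50 bases after the start (RefSeq, GRCm38.p6, chr2:152105274-152105573, plus strand). Positions are counted from the start, whose base is 1, with no base 0. Capitals mark the match to the ARE with an AP-1 core, TGANTCAGC, at bases -45 to -37 from the start, and a match to the ARE core TGACNNNGC on the opposite strand at bases 29 to 37.
Srxn1: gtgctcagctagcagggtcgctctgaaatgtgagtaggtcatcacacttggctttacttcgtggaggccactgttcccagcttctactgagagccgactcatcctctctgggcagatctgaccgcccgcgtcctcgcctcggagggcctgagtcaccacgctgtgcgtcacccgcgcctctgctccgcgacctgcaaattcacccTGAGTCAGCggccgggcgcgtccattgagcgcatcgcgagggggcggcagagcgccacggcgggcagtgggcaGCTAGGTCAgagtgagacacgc

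Both strands were searched. TGANTCAGC contains the AP-1 type motif TGANTCA, which reads the same on both strands and had a further match in Srxn1 at bases -102 to -96. It was found in 7.81% of all windows. A sequence with C as the free base of TGANTCAGC would match both ARE patterns. Of the 9 pathway genes 7 had 10 such windows in the RefSeq set, and Gclc and Hmox1 had none. Sequence outside the windows was not searched. TGANTCAGC was found in 1 of the 7 genes, Srxn1, and in 1.19% of all 32851 windows of 300 bases. TGACNNNGC was found in 5 of the 7 genes and 6 of the 10 windows, and in 12.4% of all windows. The other matches are given with 8 bases on each side. A match in capitals to the opposite strand reads as the reverse complement.
Nfe2l2: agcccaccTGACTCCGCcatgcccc
Gclm: tcccgggcGCACCGTCAactctcac
Txnrd1 at its second start: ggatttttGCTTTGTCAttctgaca
Abcc4 at its first start: cccgagagGCGGGGTCAgggcgggc
Abcc4 at its second start: taatctcgTGACTCTGCcgtggtgg
These matches describe the letters of the windows, and their part in any gene's level was not tested.

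**Figure D3:**
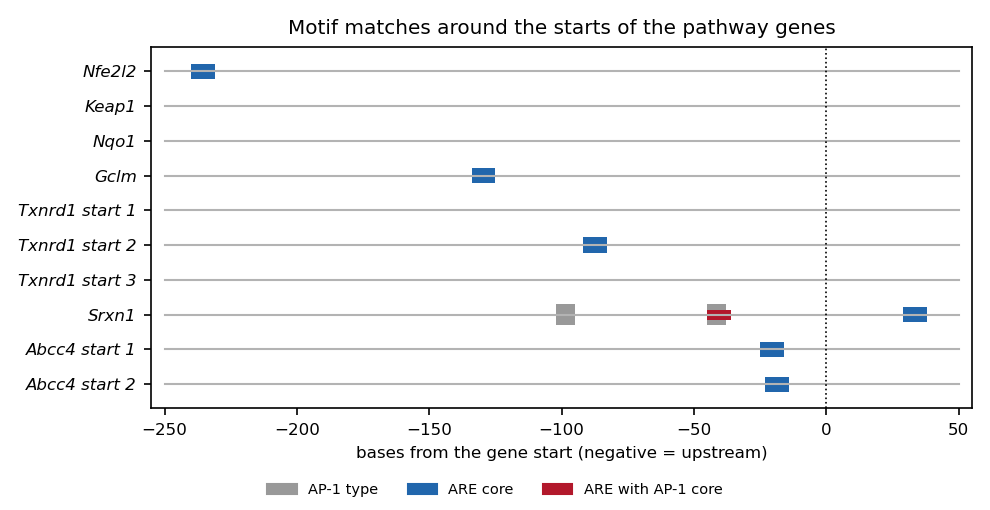
Positions of motif matches (horizontal axis, bases from the gene start) in the 10 windows of 7 pathway genes, with colours for the ARE core, the ARE with an AP-1 core and the AP-1 type motif. Within these windows Srxn1 is the 1 gene of the 7 with a match to the ARE that contains an AP-1 core, at bases -45 to -37.

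Txnrd1 encodes the cytosolic thioredoxin reductase. It had 93.7, 123 and 86.6 normalized counts in DKO and 117, 157 and 78.1 in Sqstm1 KO, against 131, 172 and 179 in WT. The DKO libraries lay below all WT libraries, and Sqstm1 KO spread over both. Its log2 fold change was -0.66 in DKO against WT (SE 0.29, unadjusted p = 0.0375, limma adjusted p = 0.203) and -0.49 in Sqstm1 KO against WT (SE 0.29, limma adjusted p = 0.381).

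Nqo1, the quinone reductase often used as the readout of NRF2, and Hmox1, the inducible haem oxygenase, were too low to enter the test, which took genes that reached 10 normalized counts in 3 or more libraries. Nqo1 had 0.956, 4.57 and 3.82 normalized counts in DKO and 6.13, 12.2 and 7.59 in Sqstm1 KO, against 9.53, 8.29 and 10.3 in WT. All 3 DKO libraries lay below the 6 others. These values came from 8 reads in DKO, 28 in Sqstm1 KO and 35 in WT, and the mean was 0.33 of the WT mean in DKO and 0.92 of it in Sqstm1 KO. When every gene of the table was tested, Nqo1 had an unadjusted p of 0.0146 and a limma adjusted p of 0.134 in DKO against WT.

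Hmox1 had 19.1, 5.71 and 7.64 normalized counts in DKO and 1.02, 4.87 and 5.42 in Sqstm1 KO, against 4.09, 7.53 and 2.43 in WT. DKO replicate 1, with 20 reads, was the highest of the 9 libraries, and the same library had the highest Keap1 and the lowest Nqo1, Srxn1 and Nfe2l2. DKO overlapped WT, and with every gene tested the limma adjusted p was 0.413 in DKO against WT and 0.281 in DKO against Sqstm1 KO. Hmox1 is also high in liver macrophages, whose markers Cd68, Csf1r, Mpeg1 and Cd14 had the low sums given above, and their part in these values was not tested.

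Abcc4 encodes the efflux pump MRP4, which exports bile acids and conjugates from liver cells. It had 24.9, 28.5 and 29.3 normalized counts in DKO and 20.4, 14.6 and 62.9 in Sqstm1 KO, against 20.4, 12.8 and 19.4 in WT. The DKO libraries were all above WT, and in Sqstm1 KO the third library stood far above the other two. In DKO against WT the log2 fold change was 0.65 (SE 0.45, limma adjusted p = 0.446). The corresponding value in Sqstm1 KO against WT was 0.61 (SE 0.45, limma adjusted p = 0.497), and 0.00602 without Sqstm1 KO replicate 3.

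**Figure D4:**
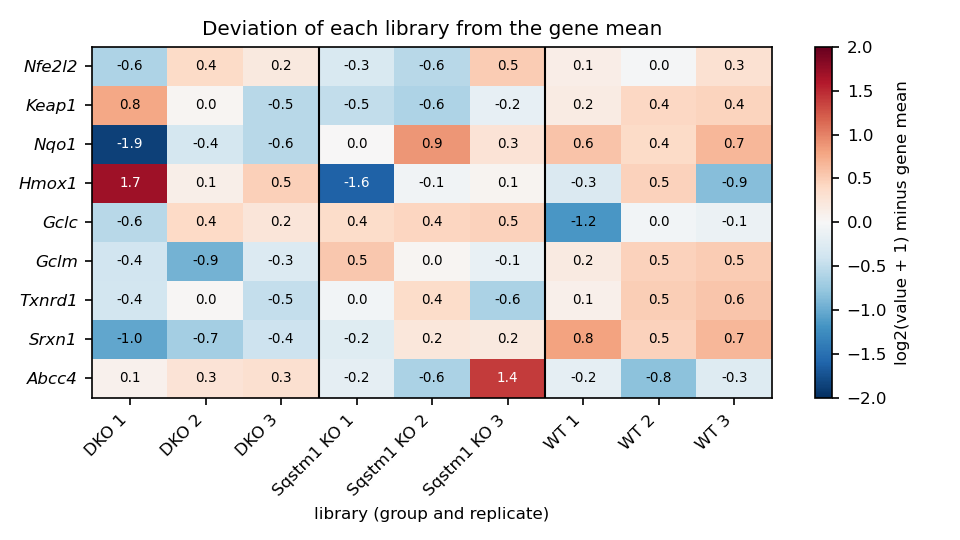
Deviation of each library from the gene's mean, as log2 of the value plus 1, for the 9 pathway genes (vertical axis) in the 9 libraries (horizontal axis, DKO, Sqstm1 KO and WT from left to right). Red is above and blue below the gene's mean; DKO replicate 1 is blue for Nqo1 and Srxn1 and red for Hmox1 and Keap1, and Sqstm1 KO replicate 3 is red for Abcc4.

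Counted together, 1 of the 7 tested pathway genes was called in DKO against WT, and it was lower, where 6.42% of all genes tested were called, 4.11% as higher and 2.31% as lower. At an unadjusted p under 0.05 there were 3 of the 7 (Gclm, Txnrd1 and Srxn1, all lower), against 21.4% of all genes. Libraries of the 2 groups did not overlap for 4 of the 7, 3 lower and 1 higher, against 31.2% of all genes, 15.5% lower and 15.7% higher. The median log2 fold change of the 7 was -0.25, with 5 negative, and that of all genes -0.02, with 51.2% negative.

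In Sqstm1 KO against WT 0 of the 7 were called by limma, and likewise 0 by edgeR and 0 by DESeq2, where limma called 5.61% of all genes, 2.43% as higher and 3.18% as lower. At an unadjusted p under 0.05 there were 2 by limma, Keap1 lower and Gclc higher, against 19.4% of all genes. Groups did not overlap for 3 of the 7, 2 lower and 1 higher, against 26.0% of all genes, 13.6% lower and 12.4% higher. The median log2 fold change of the 7 was -0.25, with 5 negative, and that of all genes -0.01, with 51.0% negative. In DKO against Sqstm1 KO 0 of the 7 were called by limma, by edgeR (0) or by DESeq2 (0), where limma called 5.93% of all genes, 4.42% as higher and 1.51% as lower. At an unadjusted p under 0.05 there were 2 by limma, Gclm and Srxn1, both lower in DKO, against 18.8%. Groups did not overlap for 2 of the 7, both lower, against 21.0% of all genes, 9.47% lower and 11.5% higher. The median of the 7 was -0.17, with 4 negative, and that of all genes -0.01, with 50.6% negative. The comparisons share libraries and are not independent of each other.

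The other genes of the pathway were taken from lists of regulators, targets and antioxidant enzymes. Of 28 genes that control NRF2 (the ubiquitin ligase subunits, MAF and BACH partners, p62 and others) 27 were tested. Against WT 1 was lower and 26 were not called in DKO, and the same numbers held in Sqstm1 KO. Of all genes 2.31% were called lower in DKO and 3.18% in Sqstm1 KO. The 1 lower gene of the list was Sqstm1 in both, the gene that both groups lack by label. Between DKO and Sqstm1 KO 0 were called by limma, edgeR or DESeq2, and at an unadjusted p under 0.05 there were 4 by limma, where 18.8% of all genes were at that level. The lowest p belonged to Bach2, a repressor that competes for the same elements, with 0.956, 4.57 and 0 normalized counts in DKO against 9.19, 16.2 and 5.42 in Sqstm1 KO (limma adjusted p = 0.0819), and Bach2os lies opposite it. The median log2 fold change of this list, Sqstm1 included, was -0.17 in DKO against WT, -0.21 in Sqstm1 KO against WT and -0.03 in DKO against Sqstm1 KO. That of all genes was -0.02, -0.01 and -0.01.

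The wider list of NRF2 targets held 62 genes, the 7 targets above among them, of which 45 had a row and 35 were tested. Of these, 2 were higher in DKO against WT, 1 was lower and 32 were not called, with a median log2 fold change of -0.02. Over all genes tested 6.42% were called, 4.11% as higher and 2.31% as lower. The gene that fell was Srxn1, and the higher genes, Mgst1 and Abcc3, had passed the filter through the DKO libraries alone. Mgst1, a microsomal glutathione transferase, had 12.4, 37.7 and 36.9 normalized counts in DKO and 3.06, 2.43 and 5.42 in Sqstm1 KO, against 1.36, 9.04 and 6.06 in WT. All 3 DKO libraries were above the 6 others. It was higher in DKO than in WT, with a log2 fold change of 2.29 (SE 0.62, limma adjusted p = 0.0398). The log2 fold change over Sqstm1 KO was 2.59 (SE 0.62, limma adjusted p = 0.0227).

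Abcc3, which encodes the efflux pump MRP3, had 33.5, 10.3 and 28.0 normalized counts in DKO and 5.10, 0.812 and 8.68 in Sqstm1 KO, against 1.36, 0.753 and 5.46 in WT. Its log2 fold change in DKO was 2.91 against WT (SE 0.73, limma adjusted p = 0.0276) and 2.24 against Sqstm1 KO (SE 0.73, limma adjusted p = 0.0983, with a call by DESeq2). Mgst1 and Abcc3 reached a value of 10 in the DKO libraries and in no other. The filter thus took them in through the same high values that were then tested. When every gene of the table was tested, the limma adjusted p in DKO against WT was 0.0355 for Mgst1 and 0.0215 for Abcc3. Against WT, the call of Mgst1 was lost without any 1 of WT replicates 1, 2 and 3 or DKO replicates 2 and 3 (limma adjusted p of 0.0511 to 0.175), and that of Abcc3 without WT replicate 1 or 2 or DKO replicate 1 or 3 (0.096 to 0.131). The call of Mgst1 against Sqstm1 KO was lost without Sqstm1 KO replicate 1 or 2 or DKO replicate 2 or 3 (0.0561 to 0.122).

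In Sqstm1 KO against WT 1 of the 35 was higher, 0 were lower and 34 were not called, with a median of 0.17, where 2.43% of all genes were called higher and 3.18% lower. The gene was Slc7a11, the cystine transporter that feeds glutathione synthesis and that ATF4 also induces. It had 8.61, 13.7 and 21.7 normalized counts in DKO and 29.6, 47.9 and 15.2 in Sqstm1 KO, against 2.72, 7.53 and 3.64 in WT. Slc7a11 had passed the filter through knock-out libraries alone, as no WT library reached the value that the filter asked for. The log2 fold change was 2.45 (SE 0.51, limma adjusted p = 0.0108), and without WT replicate 1 the adjusted p was 0.0646. When every gene of the table was tested, the limma adjusted p of Slc7a11 in Sqstm1 KO against WT was 0.00956.

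In DKO against Sqstm1 KO 1 of the 35 was higher (Mgst1), 1 was lower and 33 were not called, with a median of -0.26, where 4.42% of all genes were called higher and 1.51% lower. The lower gene was Taldo1, transaldolase of the pentose phosphate pathway, with 6.69, 6.85 and 10.2 normalized counts in DKO, 20.4, 26.8 and 21.7 in Sqstm1 KO and 12.3, 17.3 and 13.9 in WT. Its log2 fold change was -1.44 (SE 0.37, limma adjusted p = 0.0316), lost without WT replicates 2 or 3, Sqstm1 KO replicates 1 or 2 or DKO replicates 1 or 2 (adjusted p of 0.0585 to 0.108).

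By function, 1 of 7 tested glutathione genes was called in each comparison. It was Mgst1 in DKO against WT, Slc7a11 in Sqstm1 KO against WT and again Mgst1 in DKO against Sqstm1 KO. In the same order 6.42%, 5.61% and 5.93% of all genes were called. Mgst1 had passed the filter through DKO libraries alone and Slc7a11 through knock-out libraries alone. Of 6 NADPH genes Taldo1 was the 1 called in DKO against Sqstm1 KO, and 0 were called by limma, edgeR or DESeq2 against WT, where the lowest p belonged to Pgd in DKO and G6pdx in Sqstm1 KO (limma adjusted p = 0.172 and 0.2). Pgd and G6pdx encode dehydrogenases of the pentose phosphate pathway. Pgd averaged 65.7 ± 1.11 normalized counts in DKO and 98.6 ± 5.62 in WT, and G6pdx, which lies opposite Ikbkg, averaged 30.6 ± 16.4 in Sqstm1 KO and 54.6 ± 11.8 in WT. Of 4 thioredoxin and peroxiredoxin genes 0 were called by limma, edgeR or DESeq2 in any comparison, with 0, 1 and 2 at an unadjusted limma p under 0.05 in DKO against WT, Sqstm1 KO against WT and DKO against Sqstm1 KO, where 21.4%, 19.4% and 18.8% of all genes were at that level. The lowest p of these belonged to Prdx1, a peroxiredoxin, which averaged 208 ± 32.6 in DKO, 378 ± 136 in Sqstm1 KO and 226 ± 55.2 in WT (SD, n = 3 each; limma adjusted p = 0.14 in DKO against Sqstm1 KO). Of 4 haem and iron genes 0 were called by limma, edgeR or DESeq2 in any comparison, with 1, 0 and 1 at an unadjusted limma p under 0.05 in the same comparisons. Fth1, the ferritin heavy chain, averaged 240.2 ± 49.96 in DKO and 382 ± 31.1 in WT (log2 fold change -0.68, limma adjusted p = 0.217, and 0.0487 without Sqstm1 KO replicate 3, a library of neither group, against 0.186 to 0.511 without any 1 library of DKO or WT). Of 5 detoxification genes 0 were called by limma, edgeR or DESeq2, with 1 at an unadjusted p under 0.05, Akr1a1, an aldehyde reductase, in Sqstm1 KO against WT (166 ± 42.4 in Sqstm1 KO and 94.7 ± 16.6 in WT, limma adjusted p = 0.138).

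Antioxidant enzymes that are not typical NRF2 targets had 22 tested genes of 27. Against WT 1 was higher in DKO and 21 were not called. Over all genes 4.11% were called higher. The gene was Sod2, the mitochondrial superoxide dismutase, which NF-kB is known to induce. Sod2 had 59.3, 68.5 and 53.5 normalized counts in DKO and 32.7, 27.6 and 46.6 in Sqstm1 KO, against 13.6, 21.8 and 25.5 in WT. The groups did not overlap in any pair, with DKO highest and WT lowest, the reverse of the order of Srxn1. Taken pair by pair, 31.2% (DKO, WT), 26.0% (Sqstm1 KO, WT) and 21.0% (DKO, Sqstm1 KO) of all genes did not overlap. The log2 fold change of Sod2 was 1.56 in DKO against WT (SE 0.32, limma adjusted p = 0.00898) and 0.79 in Sqstm1 KO against WT (SE 0.32, limma adjusted p = 0.19). In Sqstm1 KO against WT 0 of the 22 were called by limma, edgeR or DESeq2, with 3 at an unadjusted limma p under 0.05, where 19.4% of all genes were at that level. In DKO against Sqstm1 KO it was again 0 by each tool, with 4 at an unadjusted p under 0.05, where 18.8% of all genes were.

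**Figure D5:**
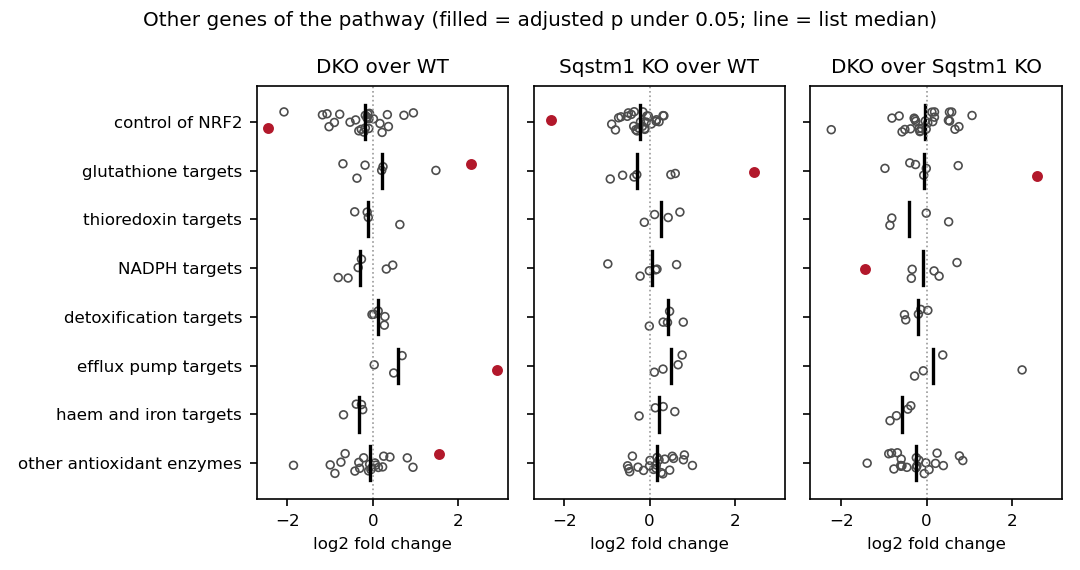
Log2 fold change (horizontal axis) of each tested gene in 8 lists of regulators, NRF2 targets and other antioxidant enzymes (vertical axis) in the 3 comparisons, with filled circles for an adjusted p under 0.05 and a line for the list's median. The filled circles are Sqstm1, Mgst1, Abcc3 and Sod2 in DKO over WT, Sqstm1 and Slc7a11 in Sqstm1 KO over WT, and Mgst1 and Taldo1 in DKO over Sqstm1 KO. Mgst1 and Abcc3 passed the filter through DKO libraries alone, and Slc7a11 through knock-out libraries alone.

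The genes outside these lists whose pattern over the 9 libraries was closest to that of Srxn1 were Anxa1, Mpp7 and Galnt7. Likeness was the root mean square difference between 2 genes' log2 values after each gene's mean was removed, and it was 0.18 for Anxa1, 0.18 for Mpp7 and 0.21 for Galnt7, with a median of 0.77 over the tested genes. Anxa1, which encodes the phospholipid-binding protein annexin A1, averaged 224 ± 26.5 normalized counts in DKO and 429 ± 81.7 in Sqstm1 KO, against 534 ± 16.5 in WT (SD, n = 3 each). It is named for its likeness to a gene already called, so its own fall is a description. The likeness rests on libraries that share a group, and Galnt7 has AW046200 opposite it.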

How the data were processed

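The authors deposited normalized counts, a signal made by dividing gene read counts by 1 size factor per library. Per the submitters' processing notes, STAR and DESeq2 were used with genome build GRCm39; the sources used here name no versions, read counter, annotation or strand setting. Dividing each deposited value by what 1 read was worth in its library gave whole reads for 100% of the 121126 values above 0 (tolerance 0.01).

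The test was limma 3.58.1 (R 4.3.3) (trend option, two-sided), fitted to log2(value + 1) of the 9 libraries with 1 mean per group. Genes had to reach 10 in 3 or more libraries, with Benjamini-Hochberg adjustment over all of them and a threshold of 0.05. Fold changes on this scale understate those of low genes. The fit was also run on simulated counts with the same relative spread for every gene, for DKO against WT alone. These counts held no odd library, so they do not give the error rate of the fit on these data. Alternatives included edgeR 4.0.16 and DESeq2 1.42.0 on recovered reads, the pseudocount, the filter, quantile normalization, a replicate block and leaving out each library. Intervals are at 95%.

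Genes named are the 9 members, Sqstm1, Nbr1, up to 4 called genes of each list (or the gene of lowest p, not all printed) and the 3 genes most like each called member. COX1, ND5, ND6, CYTB, Pcsk7, Tagln and the Y-linked genes were added after values were seen. The members and lists were chosen with earlier results of these data known.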

Additional observations from a re-analysis of the deposited data

How the results depend on the processing

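Counts of calls are given here for DKO against WT, Sqstm1 KO against WT and DKO against Sqstm1 KO in this order. The fit of the report called 650, 568 and 600 genes, edgeR on the recovered reads 735, 642 and 614, and DESeq2 880, 802 and 716. A filter of 50 in place of 10 normalized counts left 360, 290 and 291 genes called, with 0 pathway genes (Srxn1 was then not tested) and 0, 0 and 0 of the wider target list. Fitting only the compared libraries gave 1229 genes and 2 pathway genes in DKO against WT, and 352 genes with 1 of the wider list in DKO against Sqstm1 KO. Leaving out 1 library at a time gave 294 to 1409, 264 to 659 and 333 to 777 genes, the highest number each time without Sqstm1 KO replicate 3. It gave 0 to 2 pathway genes in DKO against WT, and for the wider list 0 to 6, 0 to 1 and 0 to 4.

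Values that changed sign belonged to differences that were not called. Without 1 library, the log2 fold change in DKO against WT ran between -0.351 and 0.147 for Nfe2l2 and between -0.591 and 0.0685 for Keap1. In DKO against Sqstm1 KO it ran between -0.118 and 0.416 for Nfe2l2, between -0.435 and 0.0621 for Txnrd1, between -0.377 and 0.640 for Abcc4 and between -0.460 and 0.271 for Sqstm1. The Abcc4 value was -0.20 by edgeR and -0.23 by DESeq2. Calls of Srxn1, Mgst1, Abcc3, Slc7a11 and Taldo1 depended on single libraries, as given with each. Mgst1 was also lost against WT with a pseudocount of 0.5 (limma adjusted p = 0.0515), and Taldo1 with only the compared libraries (0.101). Sod2 in DKO against WT kept its call in every alternative run. The causes were not tested.

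The replicate number as a block gave 754, 690 and 672 genes, 1, 0 and 0 pathway genes and 3, 1 and 3 of the wider list. The main fit held no block because no label says that a number is shared between groups. Same-numbered libraries had correlations of -0.115 to 0.178, of which 5 of 9 were over 0.1 and most were positive. Those of different numbers ran from -0.258 to 0.261, and most were negative. Each group's mean was removed first, so positive values in the one set bring negative values in the other. Whether the numbers pair the samples cannot be told from the labels. With the block, Abcc3 in DKO against Sqstm1 KO had a limma adjusted p of 0.0286. With 8 to 35 reads a group, Nqo1 and Hmox1 are limited by depth, which covers counting error alone.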
